A study of Mus musculus with 36 samples.

Results

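Old liver at the last time point was compared with old liver before regeneration, to describe what had not returned to the resting level. The libraries were taken by their titles: 3 labelled O1 to O3 at 240 and 3 labelled O1 to O3 before, which makes 6 of the 36 libraries of the series. All came from whole liver of C57BL/6JN mice aged 18 months, and the labels name no genetic change and no agent for either group; the submitters call the old mice the treated group. The labels give no unit for the time points, which are used here as names, and no way in which regeneration was induced. The remaining libraries are old and young (4 months) livers before and at 48, 72, 96, 120 and 240, with 3 per group. Young livers at 240 and before, which share no library with the old ones, were used as a separate comparison of the same kind.

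After loss of tissue, hepatocytes leave rest, copy their DNA and divide, and the liver regains its mass before its cells return to rest. At rest the organ stores and releases glucose, makes fat and plasma proteins, and follows feeding through insulin, glucagon and the daily clock. Immediate early genes such as Fos and Nr4a1 are switched on within minutes of a stimulus and their messages are short-lived, so their level reflects the state of the tissue shortly before it was taken.

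The 6 libraries held 2933949 to 4746579 counts, and 3 counts, the floor used for a count of 0, stand for 0.637 to 1.02 CPM, the count scaled to library size. Replicate 1 before detected 20255 genes and the other 5 libraries 15448 to 16055, so that library stands apart. Replicate 1 of both groups held Y-linked transcripts (259.7 and 213 CPM summed over 4 genes) and almost no Xist, and replicates 2 and 3 the reverse, so each group mixes both patterns in the same ratio. Hepatocyte markers identified the tissue: the 10 listed summed to 20972 to 27389 CPM before and 20740 to 23018 at 240. The biological coefficient of variation was 25.1% before and 24.4% at 240. Nothing in the labels says that the replicates were separate animals, so p-values measure the spread between samples of the same group. In the main test that spread was estimated over all 36 libraries in 12 groups, not from these 6 alone. Those groups include old liver at 48, where the coefficient was 40.6%.

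Few genes differed between the 2 groups. Of 13436 genes tested, edgeR's quasi-likelihood test called 21 at an adjusted p under 0.05, which is 0.156% of all; 2 were higher at 240 (0.0149%) and 19 lower (0.141%). At an unadjusted p under 0.05 there were 1031 genes. The median log2 fold change over all genes was 0.004. For 9010 genes (67.1%) the 95% interval lay within 1 log2 unit either side of 0, for 37 it lay wholly beyond that bound, and for 4389 it allowed neither statement. The number called depended on the libraries and the fit. It was 4 without replicate 3 before, 5 without replicate 2 or 3 at 240, 7 without replicate 1 at 240, 13 with the replicate number as a block, and 0 when only the 6 libraries were fitted (927 at an unadjusted p under 0.05; DESeq2 called 54 and limma-voom 9). With the number as a block in the fit of these 6 libraries alone, here named the blocked fit of 6, it was 147. The adjusted p of the blocked fit of 6 is given below only for genes that it called and the main fit did not. Genes that neither fit called are given without it, so the values shown are its calls alone. That fit spends part of the 6 libraries on the block, which leaves little per gene to estimate the spread from.

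The plot of called genes by library shows all 21. Their old groups did not overlap for 20 of them; the exception was Elf2. Over all genes tested, groups that do not overlap occurred for 848 higher (6.31%) and 954 lower (7.10%).

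**Figure D1:**
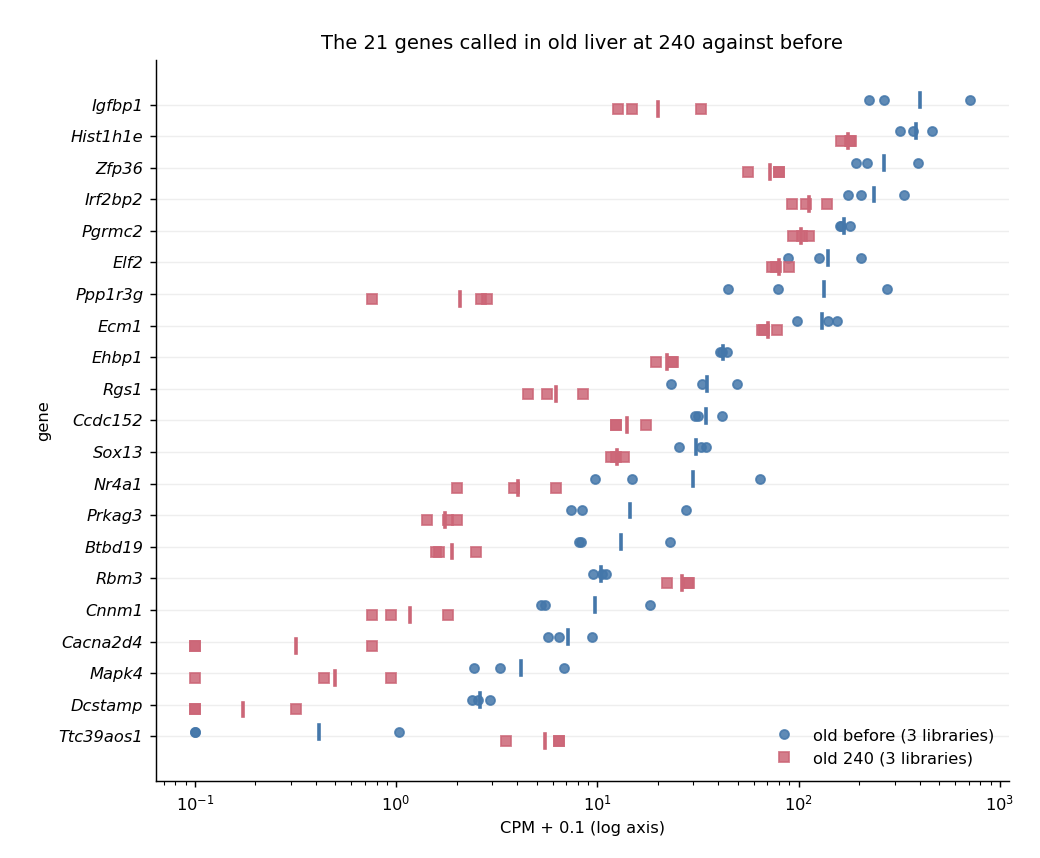
Each row is 1 of the 21 genes called in old liver at 240 against before; circles are the 3 libraries before and squares the 3 at 240, with CPM plus 0.1 on a log axis and a vertical bar at each group's mean. Rbm3 and Ttc39aos1 lie to the right at 240, and the means of the 19 others lie to the left.

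Genes of glucose and glycogen handling and of the response to feeding were among the largest differences. Ppp1r3g (chr13:35958824-35970388, GRCm38), which directs protein phosphatase 1 to glycogen in hepatocytes, stood at 44.6, 79.3 and 276 CPM before and at 0.660, 2.72 and 2.55 CPM at 240. All 3 libraries before were far above all 3 at 240. The fitted log2 fold change was -6.11, with an SE of 0.81 (adjusted p = 0.000695 by edgeR's quasi-likelihood test), and the gene was also called with replicate 3 before left out.

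Igfbp1 (chr11:7197787-7202546) encodes a secreted protein that binds insulin-like growth factors and is repressed by insulin. It was at 224, 266 and 711 CPM before and at 14.7, 12.6 and 32.7 CPM at 240, a fall by 4.31 (SE 0.83, adjusted p = 0.0266 by edgeR). With the replicate number as a block its adjusted p was 0.0561, so the call was lost there. Prkag3 (chr1:74738922-74749471), a regulatory subunit of the energy sensor AMPK known mainly from muscle, was at 7.28, 8.27 and 27.6 CPM before and at 1.32, 1.70 and 1.91 CPM at 240. For both genes replicate 3 before was the highest of the 6 libraries and the groups were apart. Prkag3 fell by 3.11 (SE 0.64, adjusted p = 0.0374 by edgeR).

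In the list of 24 genes of the feeding and fasting response, these 2 members (Ppp1r3g and Igfbp1) were called lower and none higher. Groups did not overlap for 8 of the 24, all lower, against 7.10% of all genes tested. The median log2 fold change was -0.354, or -0.220 without replicate 3 before. Of the 22 genes of the glucose and glycogen list, Ppp1r3g was the one called, and the median was -0.169, or -0.0970 without replicate 3 before. G6pc, the enzyme that releases free glucose from the liver, did not pass the test: it was at 1818, 913 and 1544 CPM before and at 361, 124 and 446 CPM at 240 (log2 fold change -2.20, SE 0.52, adjusted p = 0.0898 by edgeR). Its adjusted p was 0.00105 by edgeR in the blocked fit of 6. G6pc was also among the uncalled genes picked for groups apart, so that its groups were apart is no separate result. The list of 21 genes of de novo lipogenesis, which turn glucose into fat, had no call and a median of -0.418. In 7 of the 21 the groups did not overlap and were lower, against 7.10% of all genes, and in none were they higher. Among its members Acly, which supplies acetyl-CoA for fat, was at 587, 407 and 512 CPM before and at 326, 309 and 240 CPM at 240 (log2 fold change -0.78, adjusted p = 0.393 by edgeR and 0.0445 in the blocked fit of 6). Acaca, the enzyme of the committed step, was at 232, 197 and 243 CPM before and at 159, 187 and 135 CPM at 240 (log2 fold change -0.49, adjusted p = 0.325 by edgeR).

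Among immediate early genes, Zfp36 and Nr4a1 were called lower at 240. Zfp36 (chr7:28376784-28379228) encodes tristetraprolin, which binds AU-rich messages and speeds their decay. It was at 193, 218 and 390 CPM before and at 79.6, 56.2 and 79.4 CPM at 240. The lowest library before exceeded the highest at 240, and the gene fell by 1.89 (SE 0.27, adjusted p = 0.000980 by edgeR).

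Nr4a1 (chr15:101253902-101274795), an orphan nuclear receptor induced by many signals, was at 9.63, 14.7 and 64.6 CPM before and at 3.74, 6.13 and 1.91 CPM at 240. The groups were apart, but replicate 3 before was several times above the other libraries. It fell by 2.97 (SE 0.61, adjusted p = 0.0374 by edgeR). The call was lost with the replicate number as a block (adjusted p = 0.0779) and without replicate 3 before, where the log2 fold change was -1.69.

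Of the 29 immediate early genes measured, 26 passed the filter on low counts. Zfp36 and Nr4a1 were called lower and none higher. Of the 26, 14 had lower groups that did not overlap, against 7.10% of all genes. In 1 the group at 240 was higher (Ier5, a gene picked out after its values were seen), against 6.31% of all genes. The median of the 26 was -1.45, against 0.004 over all genes, and it was -0.882 without replicate 3 before. On the scale of the list's mean log2(CPM + 1), that library stood at 5.95, the other 2 before at 4.86 and 5.13, and the 3 libraries at 240 at 4.50, 4.27 and 3.96. Fos, a subunit of the AP-1 transcription factor, did not pass the test. It was at 13.6, 32.2 and 127 CPM before and at 11.9, 4.43 and 1.70 CPM at 240, with groups that were narrowly apart (log2 fold change -3.24, SE 0.75, adjusted p = 0.0794 by edgeR).

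The bases upstream of a transcription start of 3 of these genes are shown because the genes fell together. Binding sites of stimulus-dependent factors are also short enough to be searched as letters. For Nr4a1 and Ppp1r3g that start lies inside the gene span given above, and its use in these livers was not tested. The windows are from RefSeq promoters (GRCm38.p6), numbered from the transcription start, with matches in capitals: TGACG or its reverse complement CGTCA, the core of the cAMP response element, for Nr4a1 (chr15:101266596-101266845, plus strand) and Ppp1r3g (chr13:35967836-35967895, plus strand), and the CArG box bound by serum response factor for Zfp36 (chr7:28379249-28379318, minus strand).
Nr4a1: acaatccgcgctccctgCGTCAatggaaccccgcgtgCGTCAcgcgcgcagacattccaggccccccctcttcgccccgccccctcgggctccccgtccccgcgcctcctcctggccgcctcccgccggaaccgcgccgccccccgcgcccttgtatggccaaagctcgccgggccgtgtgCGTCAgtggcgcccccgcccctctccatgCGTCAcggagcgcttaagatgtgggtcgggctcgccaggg
Ppp1r3g: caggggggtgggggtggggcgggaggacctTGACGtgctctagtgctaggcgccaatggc
Zfp36: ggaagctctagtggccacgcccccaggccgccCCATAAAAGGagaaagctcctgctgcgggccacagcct

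Within the 250 bases upstream of those starts, Nr4a1 held TGACG or CGTCA 4 times, at -233, -213, -69 and -40, and Ppp1r3g held it once, at -40. The CArG box of Zfp36 began at -58. Of the 21 called genes 15 matched the promoter table, and 3 of these genes held that core on either strand (Cnnm1 was the third), as did 17.8% of 32851 promoters. Of the same 15 genes 1 held a CArG box, against 1.47% of promoters. The E-box CACGTG was upstream of Cnnm1, Pgrmc2 and Ttc39aos1 and in 6.02% of promoters. The full element TGACGTCA (1.55% of promoters), the D-box TTATGTAA (0.819%), the ROR element TAGGTCA (2.23%) and the heat shock element GAANNTTC (6.69%) matched none of them. A match is a description of the letters, not of binding.

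The genes higher at 240 were Rbm3 and Ttc39aos1. Rbm3 (chrX:8138975-8145880), an RNA-binding protein induced by mild cold, was at 9.39, 10.9 and 10.5 CPM before and at 28.4, 28.3 and 22.1 CPM at 240. The 3 libraries within each group lay close together. It rose by 1.35 (SE 0.22, adjusted p = 0.00542 by edgeR). Its antisense partner Rbm3os overlaps 452 bases of it and was at a mean of 1.30 CPM before and 1.10 CPM at 240.

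Ttc39aos1 (chr4:109402279-109406257), an antisense RNA named after Ttc39a, was at 0.939, 0 and 0 CPM before and at 6.38, 3.40 and 6.37 CPM at 240. Its level before was at or near the floor of 3 counts, so the fitted log2 fold change of 4.04 (SE 0.71, adjusted p = 0.00773 by edgeR) depends on how low counts are treated; it was 7.57 without replicate 1 before, where no count is left in that group. The call was lost without replicate 2 or replicate 3 before, and without replicate 3 at 240.

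The list of cold-inducible and heat shock genes had 19 members tested of 20. Rbm3 was the one called, and the median was 0.38, or 0.230 without replicate 1 at 240. Dnajb1, a co-chaperone of Hsp70, was at 28.2, 40.2 and 29.9 CPM before and at 73.9, 42.9 and 36.1 CPM at 240, with overlapping groups (adjusted p = 0.434 by edgeR). Replicate 1 at 240 was the highest library here too.

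Irf2bp2, Sox13, Elf2 and Hist1h1e were also called lower. Irf2bp2 (chr8:126588296-126593986), a corepressor first found as a partner of interferon regulatory factor 2, was at 203, 175 and 334 CPM before and at 92.4, 109 and 138 CPM at 240 (log2 fold change -1.07, SE 0.21, adjusted p = 0.0266 by edgeR). Sox13 (chr1:133382300-133424459), a SOX family transcription factor, was at 32.6, 25.2 and 34.7 CPM before and at 13.4, 11.6 and 12.3 CPM at 240 (log2 fold change -1.30, SE 0.27, adjusted p = 0.0374 by edgeR). The groups of both genes were apart, Sox13 with little spread at 240.

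Elf2 (chr3:51252720-51340683), an ETS family transcription factor, was at 88.8, 127 and 205 CPM before and at 77.4, 89.5 and 73.9 CPM at 240. Here replicate 2 at 240 lay above replicate 1 before, so the groups touch. It had the highest unadjusted p of the called genes (log2 fold change -0.80, SE 0.18, adjusted p = 0.0492 by edgeR). Replicate 3 before was the highest library; without it the log2 fold change was -0.42, and the Elf2 call was lost in 14 of 18 other settings. Hist1h1e (chr13:23620629-23622558 in GENCODE M21), a linker histone whose message lacks a poly(A) tail in dividing cells, was at 460, 319 and 372 CPM before and at 183, 180 and 162 CPM at 240 (log2 fold change -1.13, SE 0.22, adjusted p = 0.0266 by edgeR). It shares 496 bases with Hist1h2be on the same strand, which was at 5.43 CPM before and 6.28 CPM at 240 on average.

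Among genes of membranes, signalling and the matrix, Ehbp1 (chr11:22005825-22287083), an adaptor of endocytic traffic, was at 40.6, 41.8 and 44.0 CPM before and at 19.6, 23.5 and 23.6 CPM at 240 (log2 fold change -0.93, SE 0.16, adjusted p = 0.00773 by edgeR). Pgrmc2 (chr3:41066326-41083046), a haem-binding membrane protein, was at 161, 163 and 179 CPM before and at 112, 104 and 93.4 CPM at 240 (log2 fold change -0.70, SE 0.14, adjusted p = 0.0266 by edgeR). Both had tight groups that lay apart, and Pgrmc2 had the smallest log2 fold change of the 21.

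Ecm1 (chr3:95734147-95739876), a secreted matrix glycoprotein, was at 98.1, 156 and 140 CPM before and at 67.5, 77.6 and 66.0 CPM at 240 (log2 fold change -0.90, SE 0.19, adjusted p = 0.0374 by edgeR). It was the one called gene in the list of 25 stellate cell and matrix genes, whose median was 0.144. That median ran from -0.189 without replicate 2 at 240 to 0.397 without replicate 1 at 240. Of the 25 members 15 had a log2 fold change above 0 and 10 below. Groups did not overlap for 6 higher and 3 lower members (all genes: 6.31% and 7.10%). The summed level of the list was 2437 to 2756 CPM before and 1617 to 2528 CPM at 240. The collagens Col1a1 and Col4a1 stood higher at 240 without passing the test. Col1a1 was at 7.28, 9.38 and 5.02 CPM before and at 14.5, 23.8 and 13.4 CPM at 240 (log2 fold change 1.23, SE 0.73, adjusted p = 0.769 by edgeR and 0.0216 in the blocked fit of 6). Col4a1, a chain of basement membrane collagen, was at 38.5, 32.8 and 26.7 CPM before and at 57.6, 59.9 and 56.9 CPM at 240 (log2 fold change 0.83, adjusted p = 0.538 by edgeR and 0.0222 in the blocked fit of 6). Both collagens had groups that did not overlap, in the direction opposite to Ecm1. In bulk tissue, fewer cells of a type and less RNA per cell cannot be told apart.

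Rgs1 (chr1:144244669-144249104), which shortens G protein signals in leukocytes, was at 33.1, 49.1 and 23.3 CPM before and at 8.36, 4.43 and 5.52 CPM at 240 (log2 fold change -2.50, SE 0.51, adjusted p = 0.0349 by edgeR). The summed level of 12 MHC class II and dendritic cell markers was 205 to 329 CPM before and 147 to 213 CPM at 240, and that of 15 T, B and NK cell markers 20.8 to 48.9 and 10.9 to 37.6 CPM. For Kupffer cells and monocytes (22 markers) the sums were 1107 to 1551 and 1154 to 1844 CPM. The sums overlapped in all 3 lists and no marker of these lists was at 0 in every library; the part of leukocyte numbers in the fall of Rgs1 was not tested.

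Btbd19, Cnnm1 and Mapk4 were called at low levels. Btbd19 (chr4:117119219-117125658), a protein with a BTB domain, was at 8.22, 8.04 and 22.8 CPM before and at 1.54, 2.38 and 1.49 CPM at 240 (adjusted p = 0.0266 by edgeR). Cnnm1 (chr19:43439069-43497210), of a family of magnesium transport proteins, was at 5.40, 5.14 and 18.3 CPM before and at 0.660, 1.70 and 0.850 CPM at 240 (adjusted p = 0.0374 by edgeR). Mapk4 (chr18:73928486-74065434), an atypical MAP kinase, was at 2.35, 6.70 and 3.19 CPM before and at 0, 0.340 and 0.850 CPM at 240 (adjusted p = 0.0478 by edgeR). In all 3 genes the libraries at 240 were at or close to the floor of 3 counts.

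Dcstamp (chr15:39745930-39760938), known for the fusion of macrophages into giant cells, had 33 counts before and 1 at 240 over the 3 libraries of each group; its level before was 30.7 times that at 240, with a counting interval of 5.14 to 1248 (adjusted p = 0.00773 by edgeR). Cacna2d4 (chr6:119236524-119352407), an auxiliary subunit of calcium channels, had 93 and 3 counts, a ratio of 28.8 with a counting interval of 9.56 to 142 (adjusted p = 0.0374 by edgeR). Ccdc152 (chr15:3280099-3303526) was at 31.7, 30.4 and 41.5 CPM before and at 12.3, 12.3 and 17.4 CPM at 240 (log2 fold change -1.29, SE 0.28, adjusted p = 0.0492 by edgeR). It overlaps Sepp1, the gene of the plasma selenium carrier, by 439 bases on the opposite strand; Sepp1 was at a mean of 6099 CPM before and 5581 CPM at 240, and the use of strand in the counting is not given in the sources used here, so reads of the pair cannot be told apart. Cacna2d4 overlaps Lrtm2 on the opposite strand over 15634 bases, and Lrtm2 was at 0.231 CPM before and 1.74 CPM at 240 on average.

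The calls rested on single libraries to different degrees. Ppp1r3g, Zfp36 and Rbm3 were called when any 1 of the 6 libraries was left out. Of the 21 genes, 17 were called without replicate 1 before, 13 without replicate 2 before and 4 without replicate 3 before (Dcstamp beside those 3). Without replicate 1, 2 or 3 at 240 there were 5 each. With the replicate number as a block 12 of the 21 were called; the adjusted p was 0.0516 for Irf2bp2 and Rgs1, 0.0577 for Cacna2d4, 0.0741 for Ccdc152, and 0.0779 for Ecm1, Mapk4 and Elf2. No called gene changed sign in the 18 other settings, and none was called in all of them.

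The time courses of the called genes differed in shape. For 20 of the 21 the mean before lay outside the range of the 5 later means of old liver, so they stood on the same side of it from 48 on. These later means share the libraries before with the comparison at 240 and are given as levels without a test. Rbm3 had a mean of 10.3 CPM before and of 22.2 to 27.5 CPM at the 5 later times. Zfp36 had 267 CPM before and 45.6 to 71.7 CPM later, and Sox13 30.9 CPM before and 12.4 to 15.9 CPM later. Ppp1r3g had 133 CPM before and 0.758 to 2.23 CPM later. All 4 means stood apart from the level before at 48 and still did at 240.

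Other called genes had their lowest mean at 240. Irf2bp2 had means of 238 CPM before, 223, 182, 160 and 176 CPM from 48 to 120, and 113 CPM at 240. Hist1h1e was at 384 CPM before, 244 to 331 CPM from 48 to 120, and 175 CPM at 240. Igfbp1 was the exception to the range rule: its mean was 401 CPM before and 1228 CPM at 48, then 123, 134 and 222 CPM, and 20.01 CPM at 240. For 9 of the 21 genes the mean at 240 was the lowest or the highest of the 6.

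**Figure D2:**
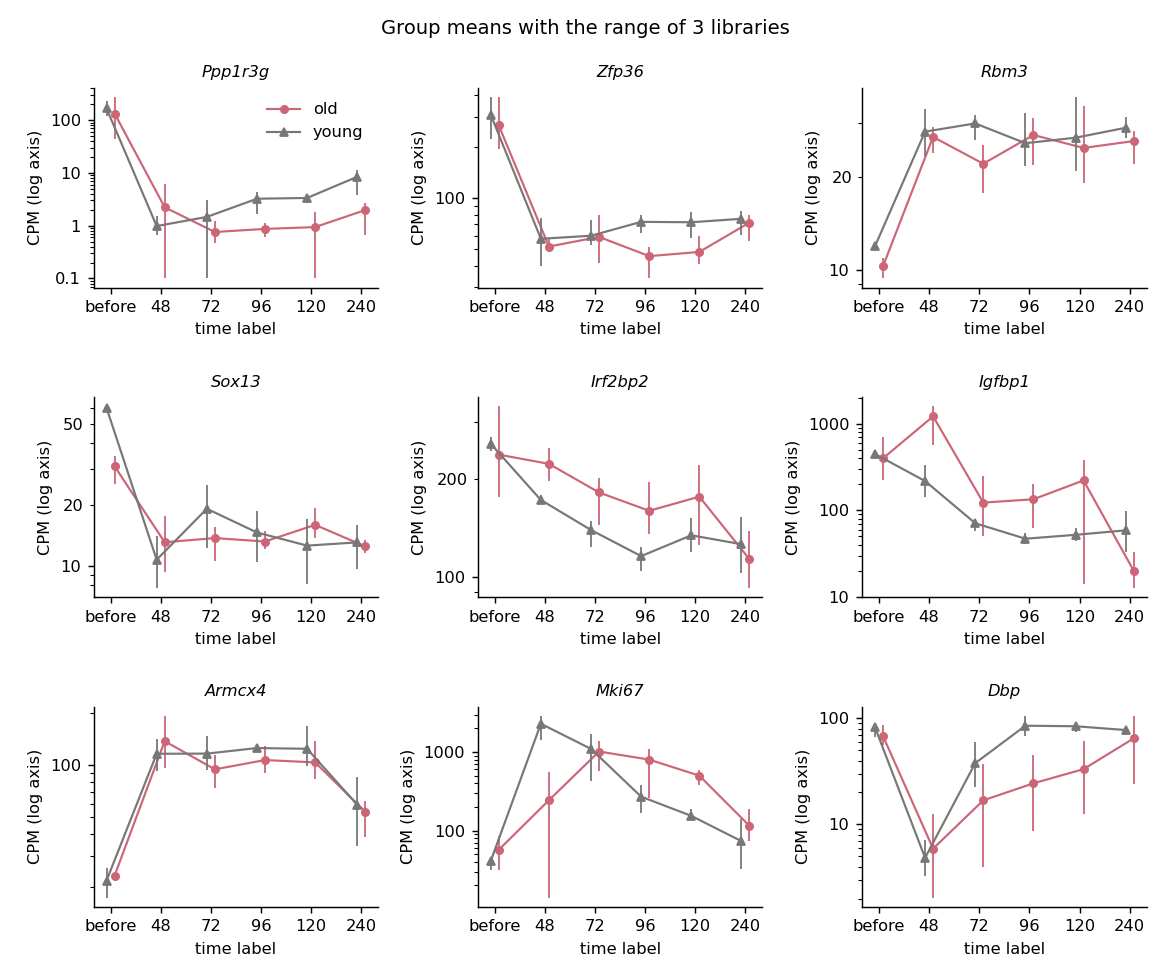
Group means in CPM on a log axis at the 6 time labels for 9 genes, with old liver as circles, young liver as triangles and vertical lines from the lowest to the highest of 3 libraries; a library at 0 is drawn at 0.1. Ppp1r3g, Zfp36, Rbm3 and Sox13 step away from before by 48 and stay there, whereas Mki67 and Dbp come back toward their level before.

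Mki67, Cdkn1a and Dbp were described by choice, for their known parts in the cycle and the clock. Mki67, the marker of cycling cells, had a mean of 56.9 CPM before, 1014 CPM at 72 and 115 CPM at 240. Its 3 libraries at 240 were at 188, 73.2 and 83.5 CPM against 55.2, 84.2 and 31.3 CPM before, so the groups overlap (log2 fold change 1.02, SE 0.76, adjusted p = 0.837 by edgeR). Cdkn1a, the p21 inhibitor of cyclin-dependent kinases, was at 5.24 CPM before, 105 CPM at 48 and 11.7 CPM at 240, with overlapping groups (adjusted p = 0.780 by edgeR). Dbp, an output gene of the clock, was at 68.0 CPM before, 5.92 CPM at 48 and 64.6 CPM at 240 (adjusted p = 0.994 by edgeR).

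Armcx4, an armadillo repeat gene on the X chromosome, was named by a rule for uncalled genes with groups apart. It was at 22.5, 23.5 and 23.3 CPM before, at a mean of 137 CPM at 48, and at 60.9, 38.5 and 62.4 CPM at 240. As the rule required, the groups were apart and the gene was not called in old liver. Its log2 fold change was 1.23 (SE 0.30, adjusted p = 0.0898 by edgeR and 0.00924 in the blocked fit of 6). In young liver it passed the test (1.45, adjusted p = 0.0234 by edgeR). Ccnd1, cyclin D1 of the entry into the cycle, was at 139, 291 and 247 CPM before and at 304, 468 and 573 CPM at 240, apart by a small margin (log2 fold change 0.99, SE 0.66, adjusted p = 0.800 by edgeR and 0.00924 in the blocked fit of 6). Alb, the main plasma protein, was at 8144 to 10940 CPM before and 7055 to 9641 CPM at 240 (adjusted p = 0.909 by edgeR).

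In young liver 33 genes were called at 240 against before (0.246%), 7 higher (0.0521%) and 26 lower (0.194%). Of the old calls 12 were also called in young liver, which is 57.1% of the 21 and 36.4% of the 33; 2 were higher and 10 lower at both ages, and none were opposite. The 12 included Ppp1r3g (young log2 fold change -4.32), Zfp36 (-2.03), Rbm3 (1.28), Nr4a1 (-4.31) and Sox13 (-2.20). All 21 had the same sign in young liver. For 20 the young groups did not overlap in the same direction (all genes: 6.14% higher and 6.56% lower), and 20 had an unadjusted p under 0.05 there, against 5.11% of all genes in either direction; the exception was Pgrmc2 (-0.26, unadjusted p = 0.0651 by edgeR). Across the 13436 genes the changes at the 2 ages had a Pearson r of 0.512 and a Spearman rho of 0.442; genes are not independent replicates.

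**Figure D3:**
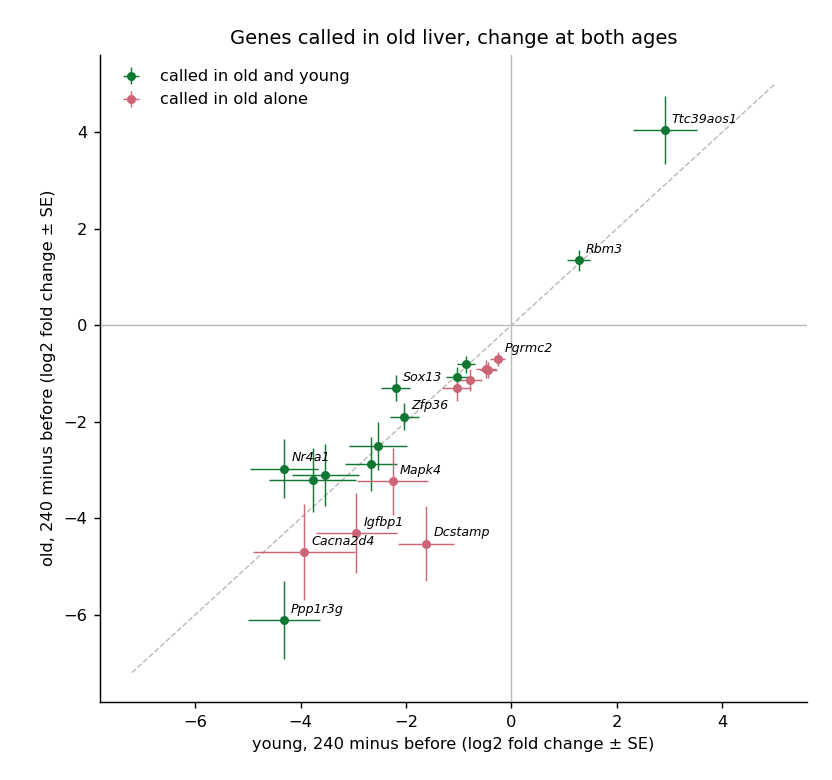
Log2 fold change at 240 against before with its standard error in young (horizontal) and old liver (vertical) for the 21 genes called in old liver; the dashed line marks equal change. All 21 points lie in the quadrants of equal sign, and 12 of the genes were called at both ages.

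No gene passed the test of the difference between the ages itself (0% called; 179 genes at an unadjusted p under 0.05 by edgeR, 0 called with 135 by DESeq2, and 0 with 174 by limma-voom). The pair with the smallest p were BC025920 and 3000002C10Rik, both at low levels. BC025920 was at 2.82, 1.56 and 0.913 CPM before and at 0.660, 1.02 and 1.06 CPM at 240 in old liver, whereas its young log2 fold change was 1.49. For Ppp1r3g the old change minus the young change was -1.79 (SE 1.05), and for Sox13 it was 0.89 (SE 0.38).

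Genes of the young response were then followed into old liver at 240. They were defined by contrasts between young groups, as genes called at both 48 and 72 against young before. The filter and the spread behind those calls came from the fit of all 36 libraries, old ones included. Of 860 that were higher there, 2 were called higher in old liver at 240 (Rbm3 and Ttc39aos1) and none lower. These are 0.233%, against 0.156% of all genes called in either direction and 0.0149% called higher. Of the 860, 76.5% had a log2 fold change above 0, and the median was 0.257. Of 682 that were lower, 15 were called lower and none higher, which is 2.2%, against 0.141% of all genes called lower. Of the 682, 17.9% were above 0, and the median was -0.225. Over all genes tested 50.7% were above 0. The rising group had a median of 0.0796 without replicate 1 at 240, 0.155 without replicate 3 before and 0.391 without replicate 1 before, so its size depended on single libraries. The 95% interval lay within 1 log2 unit for 43.4% of the rising and 69.9% of the falling genes.

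**Figure D4:**
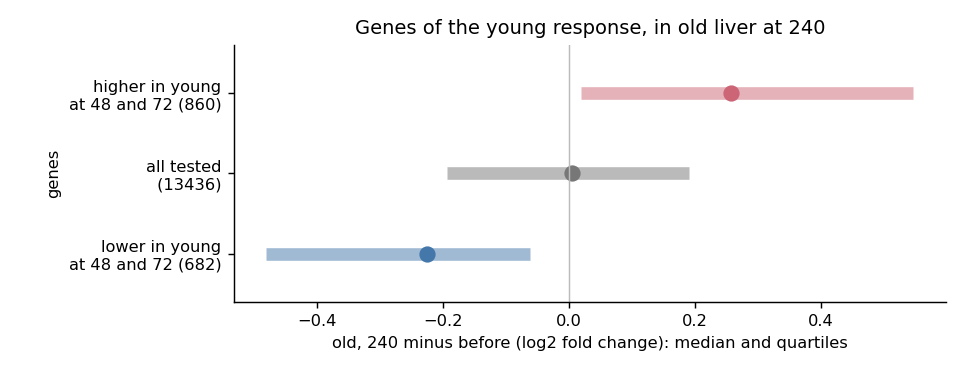
Median (circle) and quartiles (bar) of the log2 fold change in old liver at 240 against before, for genes higher or lower in young liver at both 48 and 72 and for all genes tested. The rising genes are centred at 0.257 and the falling genes at -0.225, while all genes are centred at 0.004.

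Cell cycle genes had no call in old liver at 240. All 30 genes of the mitosis list had a log2 fold change above 0, with a median of 0.961. Of the 30, 3 had higher groups that did not overlap, against 6.31% of all genes. The median was 0.308 without replicate 1 at 240. On the scale of the list's mean log2(CPM + 1) the libraries stood at 2.23, 1.81 and 1.16 before and at 3.07, 1.95 and 2.06 at 240, so the groups overlap and replicate 1 was the highest in each. Between libraries of the same number the score at 240 minus that before was 0.841, 0.140 and 0.905, above 0 for all 3 numbers. Nusap1, a spindle protein, was at 2.35, 1.34 and 0.456 CPM before and at 5.94, 3.75 and 1.91 CPM at 240 (adjusted p = 0.762 by edgeR). The 30 DNA replication genes had a median of 0.217, which was -0.145 without replicate 1 at 240. Of 23 tested genes of cell cycle entry and arrest none was called and the median was 0.251, or -0.0160 without that library. Cdk6, a kinase of the first gap phase, was at 43.4, 48.5 and 37.4 CPM before and at 73.7, 56.2 and 59.7 CPM at 240, with groups apart (log2 fold change 0.55, adjusted p = 0.259 by edgeR).

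Interferon-stimulated genes also stood highest in replicate 1 at 240. All 26 were above 0 with a median of 0.763 and no call, and the median was 0.166 without replicate 1 at 240. Their summed level was 1639, 1592 and 1069 CPM before and 3384, 1744 and 1392 CPM at 240. On the scale of the mean log2(CPM + 1), 240 minus before was 1.05, 0.226 and 0.505 for numbers 1 to 3. Usp18, which dampens interferon signalling, had the smallest p of the list, at 11.5, 9.38 and 5.93 CPM before and 19.1, 15.3 and 13.6 CPM at 240 (adjusted p = 0.649 by edgeR).

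**Figure D5:**
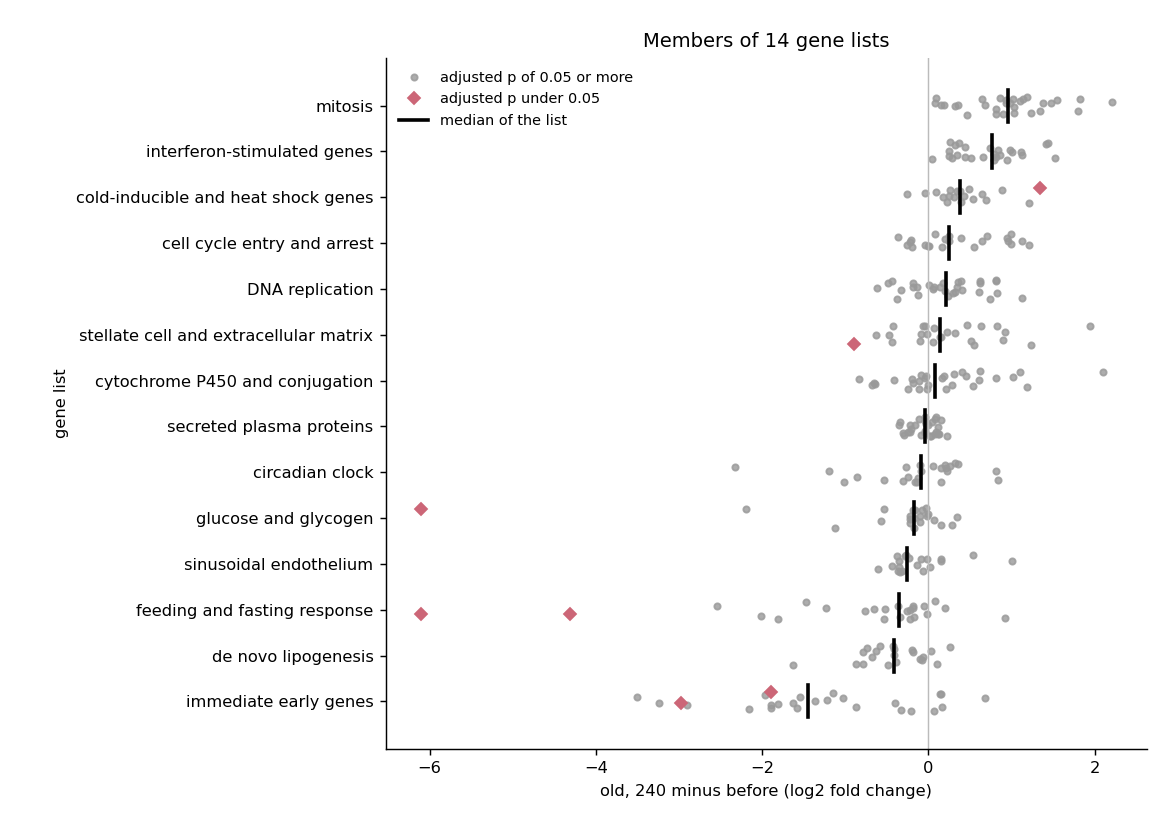
Log2 fold change in old liver at 240 against before for the tested members of 14 gene lists; grey circles did not pass the test, red diamonds did, and black bars mark each list's median. The medians run from -1.45 for immediate early genes to 0.961 for mitosis, and Ppp1r3g at the far left appears in 2 lists.

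Other lists of liver function, beside those of feeding, glucose and lipogenesis above, held no call. The median was 0.0373 for 20 hepatocyte transcription factors, -0.0368 for 29 secreted plasma proteins, 0.0120 for 21 acute phase genes, -0.0726 for 23 genes of cholesterol synthesis and -0.0207 for 26 of fatty acid oxidation and ketogenesis. It was 0.0819 for 30 genes of cytochrome P450 and conjugation, 0.163 for 20 pericentral and Wnt targets, -0.0758 for 19 urea cycle and periportal genes and -0.119 for 23 of bile acid synthesis and transport. The 24 clock genes had a median of -0.0917 and no call. With 1 library left out, each of these 10 medians except that of bile acid synthesis took both signs; the acute phase ran from -0.198 to 0.261, the pericentral list from -0.0454 to 0.368 and the urea cycle list from -0.203 to 0.0763. Bhlhe40, a repressor of the clock that also responds to feeding, was at 593, 678 and 536 CPM before and at 368, 360 and 265 CPM at 240 (log2 fold change -0.86, adjusted p = 0.353 by edgeR and 0.0129 in the blocked fit of 6).

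Rhbg and Ppp1r15a had groups apart and passed in the blocked fit of 6 but not in the fit of 36 libraries. Rhbg, an ammonium transporter of pericentral hepatocytes, was at 2.58, 3.35 and 1.60 CPM before and at 6.82, 9.53 and 6.37 CPM at 240 (log2 fold change 1.57, SE 0.42, adjusted p = 0.160 by edgeR and 0.0439 in the blocked fit of 6). Ppp1r15a, which reverses the stress block on translation, was at 28.6, 31.9 and 33.1 CPM before and at 15.2, 14.6 and 14.9 CPM at 240 (log2 fold change -1.07, SE 0.25, adjusted p = 0.0794 by edgeR and 0.0113 in the blocked fit of 6). The list of 22 unfolded protein response genes that holds it had a median of -0.0750 (0.0554 without replicate 1 before) and no call. Sinusoidal endothelium (20 genes) had a median of -0.252 (-0.109 without replicate 3 before) and no call; Oit3 was at 37.8, 36.6 and 45.4 CPM before and at 25.3, 26.9 and 26.5 CPM at 240 (adjusted p = 0.353 by edgeR).

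Among genes that did not pass the test, a rule named the 6 with the largest log2 fold change in each direction. It required an unadjusted p under 0.05, a mean of at least 10 CPM over the 6 libraries and groups apart. H19, an imprinted fetal liver RNA, was at 3.05, 2.46 and 1.60 CPM before and at 5.94, 56.9 and 41.0 CPM at 240 (log2 fold change 3.83, SE 1.49, adjusted p = 0.484 by edgeR). At 240 it was low in replicate 1, the library with Y-linked transcripts, and high in the other 2. It reached the mean of 10 CPM only through these 2 libraries. Nrep was at 14.6, 22.6 and 32.2 CPM before and at 76.1, 69.1 and 131 CPM at 240 (log2 fold change 2.00, adjusted p = 0.394 by edgeR and 0.000514 in the blocked fit of 6). Slc16a5, a monocarboxylate transporter, was at 33.6, 116 and 125 CPM before and at 183, 223 and 263 CPM at 240 (adjusted p = 0.607 by edgeR). These 3 genes had a wide spread within their groups. D630045J12Rik and Rrp12, a ribosome assembly factor, complete the rising genes beside Armcx4, with log2 fold changes of 1.10 and 1.05. Both stood highest in replicate 1 at 240, and without it the log2 fold changes were 0.64 for D630045J12Rik and 0.47 for Rrp12. The adjusted p of D630045J12Rik was 0.0420 by edgeR in the blocked fit of 6.

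Among the falling genes, Rgs16, a regulator of G protein signals tied to fasting in liver, was at 616, 772 and 942 CPM before and at 15.8, 162 and 81.8 CPM at 240 (log2 fold change -3.18, SE 1.07, adjusted p = 0.375 by edgeR). Gdf15, a stress hormone, was at 39.9, 51.2 and 75.7 CPM before and at 19.4, 4.09 and 5.10 CPM at 240 (log2 fold change -2.51, adjusted p = 0.0680 by edgeR and 0.0487 with the replicate block in the fit of 36). Gadd45a, a damage-response gene, was at 65.5, 149 and 138 CPM before and at 21.8, 36.8 and 16.4 CPM at 240 (adjusted p = 0.241 by edgeR and 0.0238 in the blocked fit of 6). Each was lower in all 3 libraries at 240 than in any before and none was called, which the rule that named them required. Over all genes tested, lower groups that do not overlap occurred for 954 (7.10%). Esm1, an endothelial proteoglycan, had a log2 fold change of -2.29 (adjusted p = 0.556 by edgeR and 0.00357 in the blocked fit of 6). Fos and G6pc, given above, complete the falling genes of this rule, and Fos was also among the fixed genes.

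Markers of cells outside the lobule were low. The summed level of 8 adipocyte markers was 13.9 to 90.2 CPM before and 12.9 to 82.3 CPM at 240, with replicate 1 the highest in both groups, and that of 12 neutrophil markers was 9.58 to 40.9 and 6.80 to 45.7 CPM, again highest in replicate 1. Pancreatic acinar markers (9) summed to at most 5.87 CPM, with Ctrb1 at 0, and mesothelial, gallbladder and smooth muscle markers (10) to at most 31.0 CPM, with Actg2 at 0. These sums did not separate the groups.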

How the data were processed

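RNA-seq was done on frozen liver after removal of ribosomal RNA, per the labels' protocols. The authors deposited 1 table of whole-number counts per library, not normalized, with 21955 gene symbols each. The submitters' processing notes name Trimmomatic 0.39, STAR 2.7.5b, SAMtools 1.10, featureCounts and the builds GRCm38 and mm10; the annotation and the use of strand are not given in the sources used here. Of these, 27 symbols had been turned into dates. The labels describe ERCC spike-ins, and the tables held 0 such rows, so no scaling to added RNA was possible.

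Counts of all 36 libraries were fitted together in edgeR 4.0.16 (R 4.3.3) with 12 groups of age and time, TMM scaling, filterByExpr, robust estimation of the spread and the quasi-likelihood test, adjusted by the Benjamini-Hochberg method over 13436 genes. A fold change is the fitted log2 difference, its SE is that difference over the square root of F, and CPM uses TMM-scaled totals. The 6 libraries compared held 2933949 to 4746579 counts; intervals on counts are exact and cover counting error only. The test was also run on simulated counts in which a gene had the same spread in all groups. That run cannot show how the test behaves where groups differ in spread, and no result of it is used here. Positions and promoters are those of RefSeq, GRCm38.p6; of the 21 called genes 20 had a position there. Overlaps come from GENCODE M21.

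Genes were named by rule: each called gene; 6 per direction that were not called but had an unadjusted p under 0.05, a mean of at least 10 CPM and groups apart; per list the called members or the pair with the smallest p; a few fixed genes; and the pair with the smallest p for the difference between ages. The members and lists were chosen with earlier results of these data known.

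Same-numbered libraries before and at 240 deviated together from their group means (r of 0.568, 0.355 and 0.427 for numbers 1 to 3). Libraries of different number gave 0.271 (3 before with 2 at 240) and 0.0873 (2 before with 3 at 240). Pairs of number 1 with another number gave -0.328 to -0.479. The numbers were used as a block in alternative fits, not in the main fit. Number 1 is also the library with Y-linked transcripts in both groups, so a pairing and that pattern cannot be told apart for it. In the fit of 36 libraries a number was a block across all time labels of an age, and that fit called 13 genes (2 higher, 11 lower). It is therefore no check of a pairing between before and 240 alone. Alternatives were other scalings, filters, tools (DESeq2 1.42.0, limma-voom 3.58.1), fits with fewer libraries, and each library left out; non-robust estimation of the spread and the list medians under the other settings were added after seeing the data.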

Additional observations from a re-analysis of the deposited data

How the results depend on the processing

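The count of 21 genes called in old liver was 9 with total-count scaling, 12 with no filter on low counts and 0 in a fit of only the 6 libraries. With the replicate number as a block across all times of an age in the fit of 36 libraries it was 13. With the number as a block in the fit of 6 it was 147. It was 6 without the 12 libraries with Y-linked transcripts, 32 with their presence as a term, 54 with DESeq2 and 9 with limma-voom. Leaving out 1 library gave 4 to 28. The young count of 33 was 125 with the replicate block in the fit of only those groups, 16 with limma-voom, and 8 to 30 with 1 library left out. The count of 0 for the difference between ages stayed at 0 in all settings run; it was not run in fits of only the groups compared. The median of the genes higher in the young response was 0.151 or 0.219 with the list taken from 48 or 72 alone, and 0.0796 to 0.391 with 1 library left out; that of the genes lower was -0.170 or -0.167. Among single genes that were not called, the sign changed for Rrm2 (-0.24 without replicate 1 at 240, and up to 1.80 without replicate 1 before), Slco1a1 (1.60 without replicate 1 before, and down to -4.18 without replicate 1 at 240), Alb (0.0025 without the libraries with Y-linked transcripts), Afp (0.00095 with total-count scaling, 0.14 without replicate 3 before, 0.16 without replicate 1 at 240, down to -0.23 without replicate 1 before) and Dbp (0.26 without the libraries with Y-linked transcripts, 0.12 without replicate 2 before, 0.32 without replicate 1 at 240, down to -0.60 without replicate 2 at 240). The cause was not tested. Of 1860 other recomputed values, 1609 were classed as the same, 167 lost a call, 27 gained one, 9 changed sign and 48 moved. For single genes the same means the same direction and side of the threshold. For list medians and marker levels it means a shift within 1 SD between libraries, whatever the sign, and moved means a larger shift. The interval within 1 log2 unit held for 7887 to 9999 genes. The median half-width of the interval was 0.53 log2 units, which holds the spread between 3 libraries a group as well as counting error; the part of depth in it was not tested.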

Other observations

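With the replicate number as a block and only the 6 old libraries in the fit, edgeR's quasi-likelihood test called 147 of 12225 genes, 48 higher and 99 lower at 240, among them 17 of the 21 called without the block. Of the stellate cell and matrix list, Col1a1 (log2 fold change 1.25), Col3a1 (0.89) and Col4a1 (0.84) were then higher and Ecm1 (-0.88) and Lrat (-0.67), the retinol esterase of stellate cells, lower. Of the glucose and glycogen list, G6pc (-2.33) and Gys2 (-1.14), liver glycogen synthase, were lower beside Ppp1r3g. Ccnd1 (1.01) and Cdkn2c (1.00), an inhibitor of cyclin-dependent kinases, were higher, as were Ifit1 (0.92) and Ifit3 (0.85) of the interferon list. Cd74 (-0.63) and H2-Aa (-0.84), of antigen presentation by MHC class II, were lower. No gene of the mitosis or DNA replication lists was called there, and Bhlhe40 (-0.87) was the one called of the clock list. The 36-library fit with the replicate number as a block called 13. There a number spans all times of an age. The old library with Y-linked transcripts is replicate 1 before and at 48, 96 and 240, but replicate 3 at 72 and 120. In the fit of 6 it is replicate 1 in both groups, so the 2 blocks are not alike. The part of this in the difference between the fits was not tested.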
